A study of Mus musculus with 6 samples.

Results

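The genes described here encode the enzymes that make cholesterol and fatty acids, together with the SREBP transcription factors that drive them and the proteins that hold those factors in check. They were taken by symbol from a fixed list of 32 mouse genes, and all 32 were found among the 55401 genes of the deposited table. The list held 18 genes of the cholesterol arm, 7 of the fatty acid arm, 5 SREBP regulators (Srebf1, Srebf2, Scap, Insig1 and Insig2) and 2 genes of sterol transport and storage (Stard4 and Soat1). All 32 passed the filter on low counts.

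The libraries came from BV2 cells, a line of immortalised microglia of the mouse, given vehicle (3 libraries) or LPS (3 libraries). LPS, or lipopolysaccharide, is a bacterial cell wall molecule that macrophages sense through a Toll-like receptor. The labels gave no dose, no time of treatment and no agent shared by both groups, and a cell line stands in only in part for microglia of the brain. Whether replicate libraries stem from different cultures is not stated, and the p-values therefore reflect the spread among the 6 libraries only. The stated purpose was to find regulators of the inflammatory response of microglia.

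Cholesterol is built from acetyl-CoA through mevalonate, the isoprenoid farnesyl diphosphate and squalene, and long-chain fatty acids are built from acetyl-CoA through malonyl-CoA and palmitate. SREBP proteins are made as precursors in the membrane of the endoplasmic reticulum. When sterols run low, Scap carries them to the Golgi, where proteases release the part that enters the nucleus and binds sterol regulatory elements. Insig proteins keep Scap in the endoplasmic reticulum when sterols are plentiful. In macrophages these pathways supply membranes and are known to be altered by Toll-like receptor signals.

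Each library held between 45969690 and 59023474 estimated counts in all, and 18984 to 20615 genes were above 0. On the first principal component (43.6% of the variance) the groups were apart, and on the second (19.3%) the LPS libraries were spread, with LPS 1 and LPS 3 at opposite ends. Values below are CPM, each gene's share of the library total, after scaling between libraries, and log2 fold changes are LPS against Vehicle with the standard error (SE) after ±, from 3 libraries per group. Tnf, Il1b and Nos2, which LPS is known to induce, were above every Vehicle library in each LPS library, with Nos2 at 2.196 to 2.83 CPM in Vehicle and 453 to 566 CPM in LPS. The microglial and macrophage genes Csf1r and Spi1 were at 86.2 CPM or more in every library, while the microglial markers P2ry12, Tmem119, Aif1 and Cx3cr1 lay below 5 CPM throughout. Csf1r was lower with LPS, at 231.9 ± 5.16 CPM in Vehicle and 87.0 ± 0.752 CPM in LPS (SD, n = 3). Itgam, another such gene, ran from 42.9 CPM (LPS 1) to 249 CPM (LPS 3). Summed over 5 genes each, markers of astrocytes, oligodendrocytes, endothelial cells and fibroblasts reached at most 7.80, 6.52, 4.02 and 0.780 CPM, and markers of neurons ran from 2.04 (LPS 1) to 12.7 CPM (LPS 2).

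Promoter windows are shown first because the members are classed by a shared regulator. The reference held a window, from 250 bases before to 50 after a RefSeq transcription start (GRCm38.p6), for 25 of the 32 members, some with several starts, and a gene was counted when any of its windows held the motif. The core of the sterol regulatory element, searched as TCACNCCAC on both strands, was found in 1 of these 25 (4.0%), against 1.46% of 10588 tested genes with a window. CCAAT boxes, the site of NF-Y, which is known to act beside SREBP, were found in 20 of 25 members (80.0%), against 43.1% of tested genes. GC boxes (GGGCGG), the site of Sp1, were found in 21 of 25 (84.0%), against 65.3% of tested genes. In the cholesterol arm 13 of 15 members with a window had both a CCAAT box and a GC box, while in the fatty acid arm 1 of 4 had a CCAAT box and 1 of 4 a GC box. These matches describe letters in a window and are not measured sites.

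The windows of 4 members follow, each 5′ to 3′ on the strand of the gene, with TCACNCCAC and CCAAT on either strand in capitals (the reverse of CCAAT reads ATTGG). Hmgcs1 (chr13:119690101-119690400, plus strand) is shown as the member with the sterol element core, whose first base lies 137 bases before the annotated start. Mvd (chr8:122443373-122443672, minus strand) and Idi1 (chr13:8885356-8885655, plus strand) encode consecutive enzymes that changed in opposite directions. Insig1 (chr5:28071162-28071461, plus strand) is the called regulator with the largest fall. No capital motifs overlapped. These windows were chosen after the values were seen, since the core was in none of the 11 called members with a window.
Hmgcs1: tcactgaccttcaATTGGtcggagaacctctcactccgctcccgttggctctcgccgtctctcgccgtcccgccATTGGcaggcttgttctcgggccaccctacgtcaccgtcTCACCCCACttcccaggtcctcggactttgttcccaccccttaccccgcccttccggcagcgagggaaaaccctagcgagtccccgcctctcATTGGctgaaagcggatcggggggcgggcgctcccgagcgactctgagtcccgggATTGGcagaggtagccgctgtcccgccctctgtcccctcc
Mvd: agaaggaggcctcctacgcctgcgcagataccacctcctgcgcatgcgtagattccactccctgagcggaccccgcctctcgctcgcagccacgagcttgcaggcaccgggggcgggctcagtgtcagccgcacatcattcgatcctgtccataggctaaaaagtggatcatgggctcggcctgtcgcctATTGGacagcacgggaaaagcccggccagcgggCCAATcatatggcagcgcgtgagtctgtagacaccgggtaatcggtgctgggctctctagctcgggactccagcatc
Idi1: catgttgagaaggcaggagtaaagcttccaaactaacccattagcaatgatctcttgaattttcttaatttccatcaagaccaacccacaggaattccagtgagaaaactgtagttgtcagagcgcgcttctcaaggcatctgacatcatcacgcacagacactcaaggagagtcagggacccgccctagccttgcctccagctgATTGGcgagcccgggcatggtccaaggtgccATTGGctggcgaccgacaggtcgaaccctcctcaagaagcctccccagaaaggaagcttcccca
Insig1: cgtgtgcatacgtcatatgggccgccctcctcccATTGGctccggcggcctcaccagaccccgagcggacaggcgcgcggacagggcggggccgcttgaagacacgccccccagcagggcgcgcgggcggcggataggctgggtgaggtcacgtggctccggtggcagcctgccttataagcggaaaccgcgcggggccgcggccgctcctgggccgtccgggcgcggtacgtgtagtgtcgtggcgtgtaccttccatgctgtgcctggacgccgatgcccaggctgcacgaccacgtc
Mvd and Idi1 had the same number of CCAAT boxes, 2, and of GC boxes, 1. Hmgcs1 had 4 CCAAT and 3 GC boxes, and Insig1 had 1 CCAAT and 3 GC boxes.

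More members fell than rose with LPS, and the changes were small. Of the 32 members 10 fell (31.2%), 2 rose (6.25%) and 20 did not pass the test (edgeR's quasi-likelihood test, p adjusted by Benjamini and Hochberg's method across every tested gene, threshold 0.05). Over all 16371 tested genes 10.9% fell, 12.7% rose and 23.6% changed in either direction. The genes that fell were Idi1, Cyp51, Ebp, Sc5d, Fasn, Fads1, Srebf1, Scap, Insig1 and Soat1, and those that rose were Mvd and Insig2. The median log2 fold change was -0.29 over the members and -0.02 over all tested genes, and 26 members had a negative value. Libraries of both groups did not overlap in 17 members (53.1%), against 40.8% of all tested genes. These shares, here and below, are set against all 16371 tested genes, which include many with lower counts than most members. Among genes with a mean of 5 CPM or more, 1641 of 10539 fell and 1823 rose, and of the members 12 fell and 1 rose. The number of members that fell was 5 without Vehicle 1, 6 without Vehicle 2 or without Vehicle 3, 7 without LPS 1 or without LPS 2, and 15 without LPS 3. Those 15 include Scd1 and Fads2, which then did not reach 10 counts in both remaining LPS libraries. Over the 17036 to 17169 genes tested in these settings, 1150, 1053 and 1243 fell without Vehicle 1, 2 and 3. Without LPS 1, 2 and 3 the falls were 1298, 1153 and 2085, against 1782 of 16371 with all libraries. In bulk RNA, fewer cells that express a gene and less of its RNA per cell cannot be told apart.

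Idi1, Mvd, Ebp, Srebf1, Insig1 and Soat1 kept their calls under all 16 alternative settings, including the removal of each library. The other called members did not. Their losses without a library or without the filter on low counts are given where each is described.

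**Figure D1:**
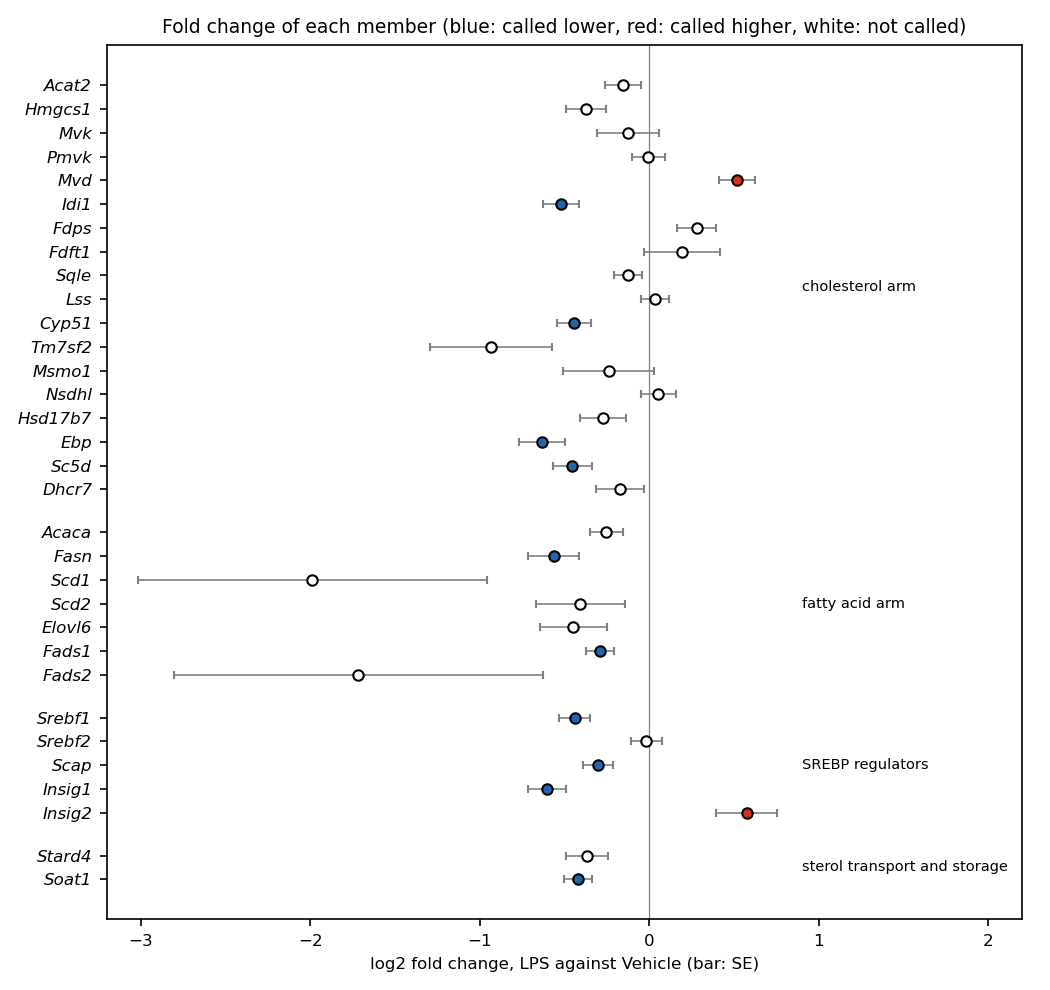
Fold change of each of the 32 members. The x axis is the log2 fold change of LPS against Vehicle from edgeR, bars are SE (3 libraries per group), and fill shows the call. Blue points are the 10 members that fell and red points the 2 that rose, and the widest bars belong to Scd1 and Fads2, which had few counts.

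The cholesterol arm opened with genes of the mevalonate steps that did not pass the test. Acat2, the cytosolic thiolase that joins acetyl-CoA units, was at 66.2, 71.0 and 58.4 CPM in Vehicle 1 to 3 and at 61.9, 58.0 and 55.7 CPM in LPS 1 to 3. Its groups overlapped, and part of its transcript matches Tcp1 and Acat3, so its counts are uncertain. Hmgcs1, which makes hydroxymethylglutaryl-CoA, was at 96.0, 101.0 and 82.8 CPM in Vehicle and 81.0, 65.3 and 70.3 CPM in LPS. Every LPS library lay below every Vehicle library. The log2 fold change was -0.37 ± 0.12 (adjusted p = 0.0527), and the gene passed the test under 7 of the 16 alternatives, with adjusted p from 0.0253 to 0.184, among them the removal of LPS 1 (adjusted p = 0.0396). Mvk and Pmvk, the kinases that phosphorylate mevalonate, had -0.12 ± 0.18 and -0.00 ± 0.10, and both sets of libraries overlapped.

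The next enzymes moved in opposite directions. Mvd (ENSMUSG00000006517), which decarboxylates the phosphorylated mevalonate to isopentenyl diphosphate, was at 60.3, 61.0 and 57.1 CPM in Vehicle and 84.3, 95.1 and 75.9 CPM in LPS. The groups were apart, and the gene rose with a log2 fold change of 0.52 ± 0.11 (adjusted p = 0.00942). Idi1 (ENSMUSG00000058258), the isomerase that acts on Mvd's product, was at 84.4, 101.9 and 102.0 CPM in Vehicle and 68.4, 69.5 and 62.8 CPM in LPS. It fell with -0.52 ± 0.11 (adjusted p = 0.00892), and every LPS library lay below the lowest Vehicle library. Idi1 has a copy, Gm13502, that matches 684 of its 3027 bases and held 244 estimated counts per library on average, against 4172 for Idi1.

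Fdps, which makes farnesyl diphosphate, had 257, 236 and 228 CPM in Vehicle and 306, 324 and 245 CPM in LPS. LPS 1 and LPS 2 stood above Vehicle and LPS 3 within its range. The log2 fold change was 0.28 ± 0.12 (adjusted p = 0.121), and without LPS 3 it was 0.39 (adjusted p = 0.00797). Fdps passed the test under only that 1 of the 16 alternatives, with adjusted p up to 0.315 over the rest.

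Between squalene and lanosterol no gene passed the test. Fdft1, squalene synthase, ran from 48.7 to 74.6 CPM in Vehicle and from 57.5 to 94.9 CPM in LPS, with LPS 3 the highest of all 6 libraries. Its exons share 774 bases with those of Ctsb, a cathepsin gene on the opposite strand. Ctsb averaged 244406 estimated counts per library against 3498 for Fdft1 and fell from 5386 ± 159 to 4105 ± 192 CPM (SD, n = 3). The library kit is not stated to mark strand, so reads of the shared part cannot be told apart and the Fdft1 values are uncertain. Sqle, squalene epoxidase and a rate-controlling step, had 175, 160.1 and 158 CPM in Vehicle and 145, 151 and 156 CPM in LPS. Its groups were apart, yet by little, and the log2 fold change was -0.12 ± 0.08 (adjusted p = 0.327). Lss, which closes the sterol rings, had 0.03 ± 0.08 (adjusted p = 0.801), and its value was -0.05 when libraries were scaled by total counts only.

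Among the enzymes that turn lanosterol into cholesterol, 3 fell. Cyp51 (ENSMUSG00000001467), the lanosterol demethylase, was at 79.5, 81.0 and 77.1 CPM in Vehicle and 58.5, 52.5 and 63.5 CPM in LPS. The groups were apart and it fell with -0.45 ± 0.10 (adjusted p = 0.0138), while without Vehicle 1 the adjusted p = 0.0534 and without Vehicle 2 the adjusted p = 0.0616. Ebp (ENSMUSG00000031168), the sterol isomerase, fell from 19.6, 18.5 and 21.0 CPM to 13.1, 11.7 and 13.3 CPM, with -0.63 ± 0.13 (adjusted p = 0.0102), the largest fall among called members of the arm. Sc5d (ENSMUSG00000032018), a sterol desaturase, had 73.1, 75.3 and 83.0 CPM in Vehicle and 58.2, 48.8 and 62.1 CPM in LPS. It fell with -0.45 ± 0.12 (adjusted p = 0.0239), and the call was lost without any of the other 5 libraries than LPS 3, with adjusted p from 0.0530 to 0.0881.

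The remaining sterol genes did not pass the test. Msmo1, which removes methyl groups, was at 155, 158 and 159.7 CPM in Vehicle and at 173, 149 and 78.6 CPM in LPS, so LPS 3 alone lay far below the rest. Its log2 fold change of -0.24 ± 0.27 became 0.03 without LPS 3. Tm7sf2, a sterol reductase, was the least abundant gene of the arm, at 3.31 to 4.04 CPM in Vehicle and 1.01 to 3.05 CPM in LPS. It shares 532 exon bases on the same strand with Vps51, which averaged 2611 estimated counts per library against 144 for Tm7sf2. The Tm7sf2 values are therefore uncertain. The log2 fold change of Tm7sf2 was -0.94 ± 0.36 (adjusted p = 0.0981), and it passed the test without LPS 2 (adjusted p = 0.0277). That was the only 1 of 15 alternatives under which it passed, with adjusted p up to 0.226 over the rest. Nsdhl, Hsd17b7 and Dhcr7, the last the enzyme that completes cholesterol, had 0.05 ± 0.10, -0.27 ± 0.14 and -0.17 ± 0.14. The value of Nsdhl was -0.03 with total counts only.

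Over the 18 genes of the arm, 4 fell, 1 rose and 13 did not pass the test. The median over the arm was -0.16 (log2 fold change). The 4 falls and 1 rise make 27.8% of the arm, near the 23.6% of all tested genes. The falls alone make 22.2% of the arm, against 10.9% of all tested genes. Among genes with a mean of 5 CPM or more, 5 of 17 genes of the arm fell and 1 rose. Of all 10539 such genes 1641 fell and 1823 rose. The summed level of the arm in the LPS libraries was 99.2%, 96.7% and 90.3% of the Vehicle mean. Only 2 genes fell when Vehicle 1 or Vehicle 2 was left out, and 2 genes rose without LPS 3.

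**Figure D2:**
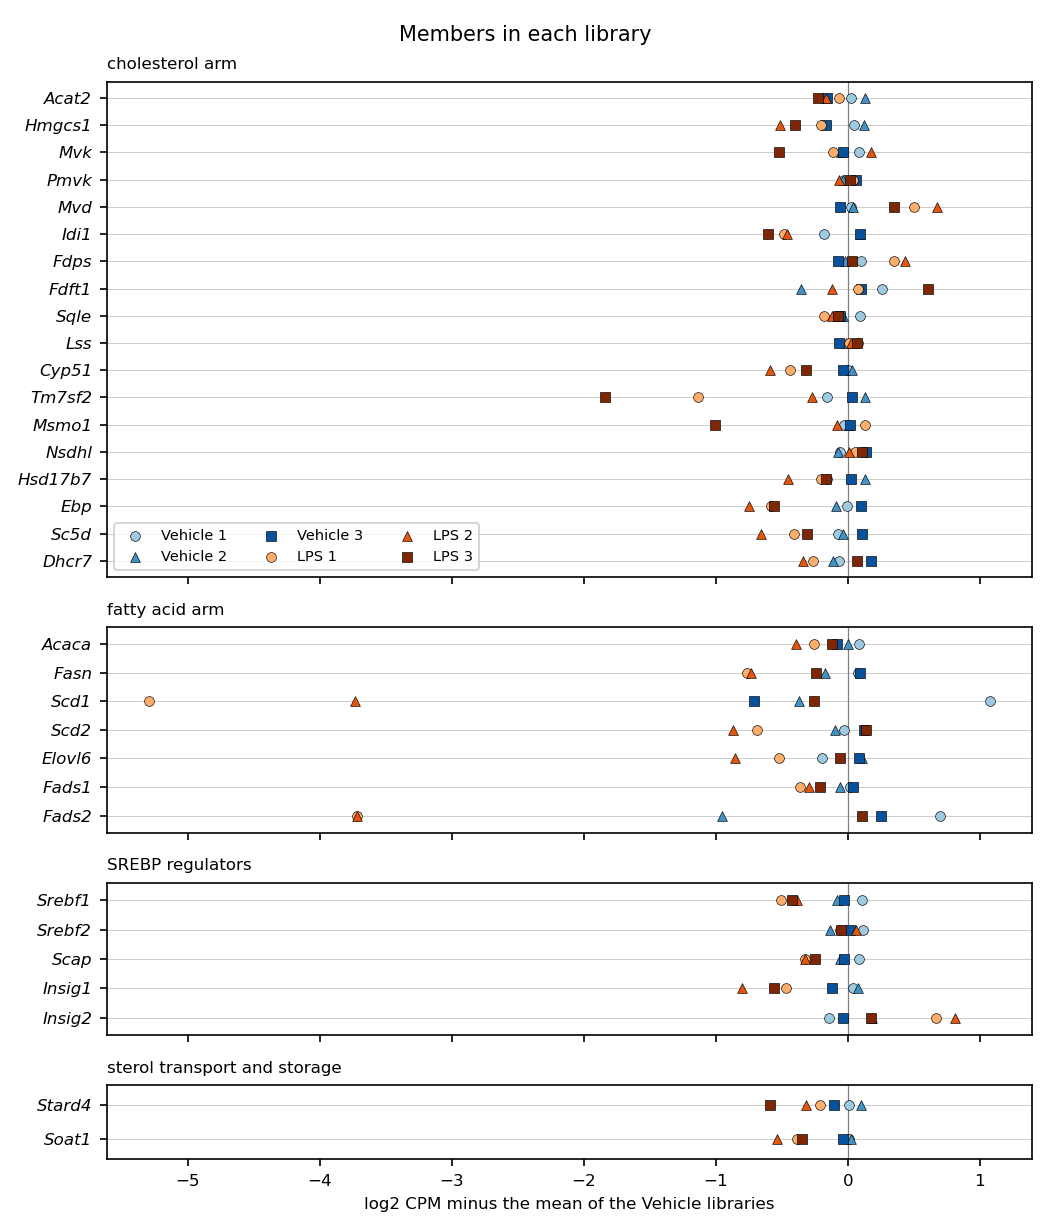
Every member in each of the 6 libraries, as log2 CPM (prior count 2) minus the mean of the 3 Vehicle libraries (x axis), in panels by arm. Blue symbols are Vehicle and orange to brown symbols LPS. In the fatty acid arm LPS 3 (brown squares) lies to the right of LPS 1 and LPS 2 for all 7 genes, and in Msmo1 it lies to the left of them.

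In the fatty acid arm LPS 3 stood apart from the other LPS libraries. In LPS 1 and in LPS 2 all 7 genes were below every Vehicle library, while in LPS 3 only 3 of them were. Such shares for single libraries were not counted over all tested genes. The groups as a whole did not overlap in 3 of the 7 genes (42.9%), near the 40.8% of all tested genes. The summed level was 65.4% of the Vehicle mean in LPS 1, 63.5% in LPS 2 and 91.6% in LPS 3. With all libraries 2 of 7 genes fell (28.6%, against 10.9% of all tested genes), and none rose, at a median of -0.45 (log2 fold change). The share called in either direction was thus also 28.6%, near the 23.6% of all tested genes. Without LPS 3, the 5 genes that still reached 10 counts in both LPS libraries (Acaca, Fasn, Scd2, Elovl6 and Fads1) all fell, with a median of -0.69. LPS 3 was singled out here from the values of these same genes, so that count adds no separate support for a fall of the arm. Scd1 and Fads2 are not among these 5, since Scd1 held 8 counts in LPS 1 and Fads2 was at 0 in LPS 1 and LPS 2. Falls also became more frequent over all tested genes, at 2085 of 17169 without LPS 3 against 1782 of 16371 with all libraries. Without Vehicle 1, Vehicle 3, LPS 1 or LPS 2 none fell, without Vehicle 2 there was 1 fall, and without LPS 2 the median was -0.28. Other values also differed between the LPS libraries. Il1b was at 411, 555 and 286 CPM in LPS 1, 2 and 3, the lowest in LPS 3, while Tnf (952, 1126 and 1025 CPM) and Nos2 (453, 566 and 519.7 CPM) lay in LPS 3 between the other LPS libraries. Il6 (160, 232 and 184 CPM) and Acod1 (3178, 3741 and 3487 CPM) also lay between them in LPS 3. The summed level of these 5 LPS response genes was 1145%, 1382% and 1222% of the Vehicle mean in LPS 1, 2 and 3. Their median shift from the Vehicle mean was 7.48, 7.80 and 7.34 on the log2 scale. On the first principal component LPS 3 lay nearest to Vehicle (36.1, against 82.0 and 54.4). The part of these differences in the values of the arm was not tested.

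Fasn (ENSMUSG00000025153), the fatty acid synthase, was at 557, 467 and 561 CPM in Vehicle and 309.6, 317 and 446 CPM in LPS. The groups did not overlap, though LPS 3 came close to Vehicle 2. Fasn fell with -0.56 ± 0.15 (adjusted p = 0.0303). The log2 fold change was -0.76 without LPS 3, and without Vehicle 1, Vehicle 3, LPS 1 or LPS 2 the call was lost, with adjusted p from 0.0840 to 0.107. Acaca, the acetyl-CoA carboxylase that makes malonyl-CoA for Fasn, had 152, 144 and 136 CPM in Vehicle and 121, 109.9 and 132 CPM in LPS. Its log2 fold change was -0.25 ± 0.10 (adjusted p = 0.0982), and without LPS 3 the value was -0.33 (adjusted p = 0.0289). Acaca passed under only that 1 of the 16 alternatives, with adjusted p up to 0.272 over the rest. The annotation holds a copy of Acaca, Gm5182, that matches 6118 bases at 99.2% identity and had 21.1 ± 2.44 CPM in Vehicle and 16.7 ± 1.40 CPM in LPS (SD, n = 3).

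The stearoyl-CoA desaturases, which place the first double bond in saturated fatty acids, were low in LPS 1 and LPS 2 but not in LPS 3. Scd2 (ENSMUSG00000025203) was at 257, 245 and 285 CPM in Vehicle, at 163 and 143 CPM in LPS 1 and LPS 2, and at 288 CPM in LPS 3, the highest of all. Its log2 fold change was -0.41 ± 0.26 (adjusted p = 0.324) and was -0.78 without LPS 3 (adjusted p = 0.00102). Scd2 passed the test under only that 1 of the 16 alternatives, with adjusted p up to 0.606 over the rest. Scd1 had 16.5, 6.02 and 4.75 CPM in Vehicle and 0.160, 0.549 and 6.50 CPM in LPS, with LPS 1 below the floor of 3 steps of the counts (0.226 CPM there). It did not pass the test with all libraries (adjusted p = 0.233), and no test without LPS 3 is used, because LPS 1 and LPS 2 then held 8 and 29 counts. Scd2 was thus the main desaturase by level, at 48.1 ± 3.78 against 1.88 ± 1.33 CPM per kilobase for Scd1 in Vehicle (SD, n = 3). Up to 623 bases of the transcripts match at 95.5% identity, so some reads can pass between these genes.

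Elovl6, which lengthens palmitate to stearate, had 31.6, 38.9 and 38.2 CPM in Vehicle and 25.1, 19.97 and 34.6 CPM in LPS, with LPS 3 again in the Vehicle range. Its log2 fold change was -0.45 ± 0.20 (adjusted p = 0.143), or -0.69 without LPS 3 (adjusted p = 0.0143). Elovl6 passed under only that 1 of the 16 alternatives, with adjusted p up to 0.350 over the rest. Fads1 (ENSMUSG00000010663), a desaturase of polyunsaturated fatty acids, had 183, 174 and 186 CPM in Vehicle and 140.4, 147 and 157 CPM in LPS. The groups were apart and it fell with -0.29 ± 0.08 (adjusted p = 0.0368), and it lost the call without any of the other 5 libraries than LPS 3, with adjusted p from 0.0797 to 0.121. With no filter on low counts the adjusted p = 0.0530, and the call was also lost when the replicate number was added to the model. Fads2, its partner in that pathway, was near the floor, at 0.794, 0.226 and 0.570 CPM in Vehicle, listed at 0 in LPS 1 and LPS 2, and at 0.513 CPM in LPS 3, and did not pass the test with all libraries (adjusted p = 0.293). No test without LPS 3 is used, since both remaining LPS libraries were at 0.

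**Figure D3:**
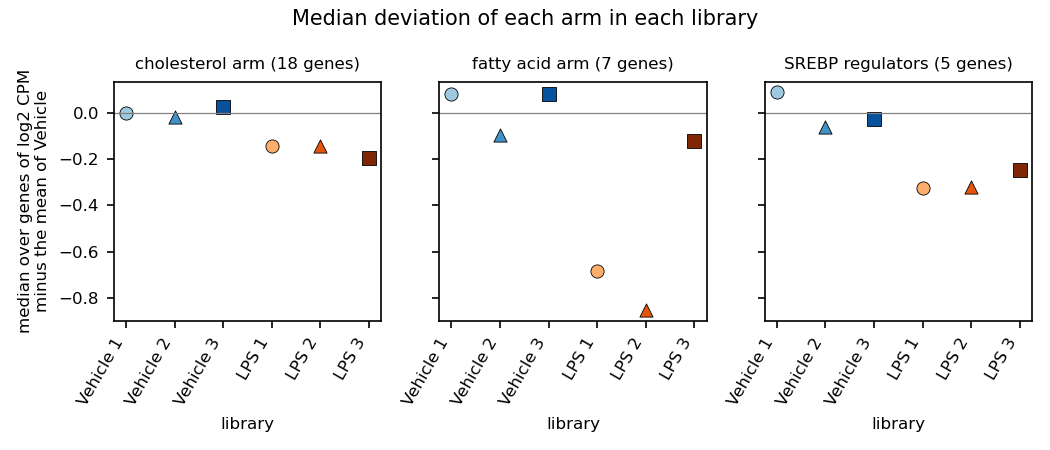
Median over the genes of each arm of log2 CPM minus the Vehicle mean, for each library. The fatty acid arm lies at -0.68 in LPS 1, -0.85 in LPS 2 and -0.12 in LPS 3, while the cholesterol arm lies between -0.20 and -0.14 and the regulators between -0.33 and -0.25 in the 3 LPS libraries.

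Of the 5 SREBP regulators 3 fell, 1 rose and 1 did not pass the test, so 80% were called against 23.6% of all tested genes. Leaving out any 1 library other than LPS 3 ended the calls of Scap and Insig2, which left 2 of 5 called (Srebf1 and Insig1). Srebf1 (ENSMUSG00000020538), whose product mainly drives fatty acid genes, was at 122, 107 and 111 CPM in Vehicle and 79.9, 86.5 and 84.5 CPM in LPS. All 3 LPS libraries lay below Vehicle, LPS 3 included, and Srebf1 fell with -0.44 ± 0.09 (adjusted p = 0.00927). Srebf2 (ENSMUSG00000022463), whose product mainly drives cholesterol genes, had 292, 245 and 273 CPM in Vehicle and 258, 282 and 260.2 CPM in LPS. The groups overlapped throughout, with a log2 fold change of -0.02 ± 0.09 (adjusted p = 0.920). By level, Srebf1 was at 0.482 to 0.516 times Srebf2 in the Vehicle libraries and 0.363 to 0.384 times in the LPS libraries, in CPM per kilobase. The table does not separate the transcripts of Srebf1, which encode different SREBP proteins.

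The Insig genes moved in opposite directions. Insig1 (ENSMUSG00000045294), itself a target of SREBP, was at 122, 126 and 109 CPM in Vehicle and 86.2, 68.3 and 80.8 CPM in LPS. The groups were apart and Insig1 fell with -0.60 ± 0.11 (adjusted p = 0.00580). Insig2 (ENSMUSG00000003721), which is not driven by SREBP in the same way, had 21.8, 27.2 and 23.4 CPM in Vehicle and 38.3, 42.3 and 27.1 CPM in LPS. LPS 1 and LPS 2 were above every Vehicle library, and LPS 3 lay just below Vehicle 2. It rose with 0.58 ± 0.18, on the edge of the threshold (adjusted p = 0.0493). Its call was lost under 7 of 10 other settings and without any library except LPS 3, with adjusted p up to 0.163, and without LPS 3 the log2 fold change was 0.74 (adjusted p = 0.00480). In CPM per kilobase, the ratio of Insig1 to Insig2 was 5.63, 4.62 and 4.67 in Vehicle 1 to 3 and 2.25, 1.62 and 2.98 in LPS 1 to 3, so the ratio was lower in every LPS library.

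Scap (ENSMUSG00000032485), the escort of SREBP, was at 95.7, 86.3 and 88.4 CPM in Vehicle and 71.9, 72.0 and 75.8 CPM in LPS. The libraries of the groups were apart and it fell with -0.30 ± 0.09 (adjusted p = 0.0395). The call was lost without any of the other 5 libraries than LPS 3, with adjusted p from 0.0828 to 0.152, and with no filter on low counts (adjusted p = 0.0639). It was also lost when the replicate number was added to the model.

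**Figure D4:**
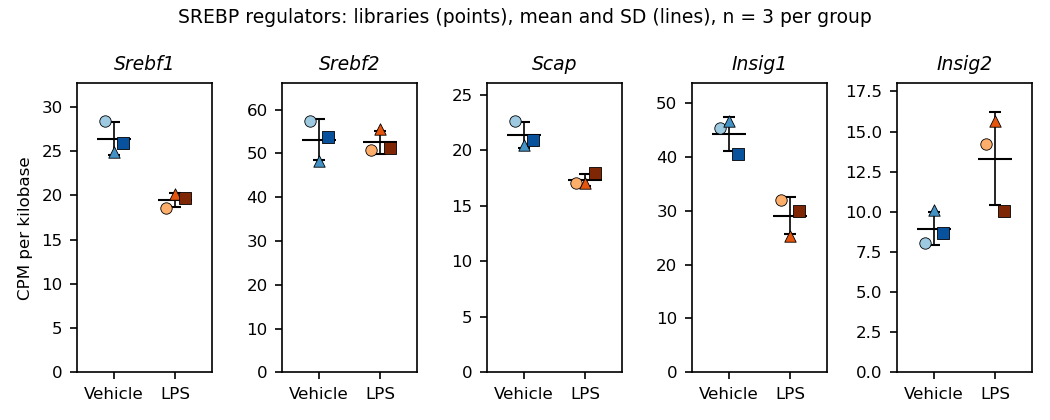
CPM per kilobase of the longest annotated transcript for the 5 SREBP regulators, on axes that start at 0. Points are libraries, lines the mean and SD (n = 3). Insig1 goes from 44.2 ± 3.21 to 29.1 ± 3.41 and Insig2 from 8.95 ± 1.04 to 13.3 ± 2.91, while Srebf2 is at 53.1 ± 4.66 and 52.5 ± 2.56.

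Both genes of sterol transport and storage had lower values with LPS. Soat1 (ENSMUSG00000026600), which esterifies cholesterol for storage in lipid droplets, fell from 341, 344 and 331 CPM to 259.9, 234 and 266 CPM. The groups were well apart, with -0.42 ± 0.08 (adjusted p = 0.00764). Stard4, a carrier of sterols between membranes, was at 54.7, 58.4 and 50.7 CPM in Vehicle and 47.1, 43.7 and 36.3 CPM in LPS. These libraries did not overlap either, yet the adjusted p = 0.0651 at a log2 fold change of -0.37 ± 0.12, and it ran from 0.0263 to 0.201 over the alternatives.

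Levels can be compared between genes per kilobase of the longest transcript. In Vehicle the most abundant member was Fdps at 81.3 ± 4.97 CPM per kilobase (SD, n = 3). Srebf2, Msmo1, Fasn and Fads1 followed at 52.3 to 53.1 and did not differ beyond their spread. Fads2, Tm7sf2 and Scd1 were the lowest, at 0.168 ± 0.0908, 1.20 ± 0.121 and 1.88 ± 1.33 CPM per kilobase, and the last 2 overlapped. Hsd17b7 came next at 5.98 ± 0.593, level with Elovl6 at 6.09 ± 0.678.

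Other genes of lipid synthesis and sterol handling moved in both directions. Of 8 genes that supply acetyl-CoA and NADPH, 2 rose and 1 fell (37.5% called, against 23.6% of all tested genes). G6pdx, the entry enzyme of the pentose phosphate pathway and a source of NADPH, rose from 317 ± 19.98 to 508 ± 36.7 CPM (SD, n = 3), and Slc25a1, the mitochondrial citrate carrier, rose with 0.32 ± 0.09. Idh1, a cytosolic source of NADPH, fell with -0.75 ± 0.10. In the isoprenoid branch of 8 genes, Ggps1, which makes geranylgeranyl diphosphate, rose with 0.48 ± 0.12 and Pdss1, which builds the tail of ubiquinone, fell with -0.96 ± 0.13. The share called in that branch was 25%, near the 23.6% of all tested genes. Of 11 tested genes of elongation and other desaturation only Elovl5, an elongase of polyunsaturated fatty acids, was called, at -0.67 ± 0.09. That share of 9.09% was below the 23.6% of all tested genes.

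Of 8 genes of glycerolipid synthesis 2 rose, namely Lpin2, a phosphatidate phosphatase (0.77 ± 0.21), and Dgat1, which completes triglycerides (0.49 ± 0.14). The share called was 25%, near the 23.6% of all tested genes. Of 10 genes of SREBP processing and sterol sensing 1 rose and 1 fell (20% called, near the 23.6% of all tested genes). Mbtps2, a protease that releases SREBP, fell with -0.31 ± 0.09, and Fbxw7, which marks nuclear SREBP for degradation, rose with 0.62 ± 0.16. In a list of LXR and oxysterol genes 3 of 6 tested fell and none rose (50% called, against 23.6% of all tested genes). Mylip, a ubiquitin ligase induced by LXR, fell from 24.3 ± 1.46 to 13.1 ± 0.93 CPM (SD, n = 3), and Nr1h3, which encodes an LXR, fell with -0.66 ± 0.18. Ch25h, which makes an oxysterol that blocks SREBP, was listed at 0 in all 6 libraries.

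Of 9 sterol trafficking genes 4 rose and 1 fell (55.6% called). Gramd1a, which moves cholesterol from the plasma membrane to the endoplasmic reticulum, rose from 46.7 ± 1.39 to 111 ± 10.6 CPM (SD, n = 3), and Osbpl2, a lipid transfer protein gene, rose with 0.78 ± 0.08. Osbpl8, another member of that family, fell with -0.58 ± 0.11. These genes are no members of the list above, and their counts are set against the same 23.6% of all tested genes.

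Genes of the cell cycle moved with the treatment. Of 12 proliferation genes 11 fell (91.7%, against 10.9% of all tested genes) and none rose, at a median of -0.9997 on the log2 scale. Their summed level in LPS 1, 2 and 3 was 44.3%, 47.3% and 52.4% of the Vehicle mean. Mki67, the member not called, was at 301 to 484 CPM in Vehicle and at 34.2, 103 and 221 CPM in LPS 1, 2 and 3. Of 10 microglial markers 4 fell (40%, against 10.9% of all tested genes) and none rose. The summed levels of these markers were 60.9% to 72.3% of the Vehicle mean in LPS. The part of both sets in the values of the lipid genes was not tested.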

How the data were processed

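Messenger RNA was enriched with oligo(dT) beads, made into libraries with a NEBNext Ultra kit and read on a NovaSeq, per the labels' protocols (3 Vehicle and 3 LPS libraries of BV2 cells). The authors deposited 1 value per gene and library with no unit named, read here, from the values and the tools, to be estimated counts. The submitters' processing notes name Bowtie2 2.2.8, HISAT2, StringTie 1.3.1 and DESeq2 with no role or order, while a genome build is not given in the sources used here. All values were whole, so rounding changed nothing. Low values piled up at multiples of 3.76 to 3.78 counts, so a count is not a read, and the floor of 3 steps (11.28 to 11.34 counts per library) covers counting error only. All sample columns were mapped by name, and 0 were left unmapped.

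The test was edgeR's (4.0.16, R 4.3.3; filterByExpr with minimum count 10 and minimum total 15, TMM scaling, robust quasi-likelihood F-test, two-sided, p adjusted by Benjamini and Hochberg's method, threshold 0.05). SE is the size of the log2 fold change over the square root of F. Gene names and the longest transcript came from GENCODE by identifier, and 55141 of 55401 identifiers had a name. Copies of members were sought with BLAST 2.17.0 (at least 95% identity over 200 bases), and promoter windows came from RefSeq. The fit was tested on simulated data. Figures used matplotlib 3.10.9 in Python 3.11.15.

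The members and lists were chosen with earlier results of these data known. All members are named; of each other pathway list up to 2 called rises and 2 called falls with the largest change are eligible for naming. Alternatives were 3 other scalings, no filter and a stricter filter (mean of 5 CPM), the DESeq2 1.42.0 Wald test, limma 3.58.1 voom, edgeR's test as before version 4, a replicate block, counts divided by their step, and leaving out each library.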

Additional observations from a re-analysis of the deposited data

How the results depend on the processing

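Of 32 members, 6 called genes (Idi1, Mvd, Ebp, Srebf1, Insig1 and Soat1) passed the test under all 16 alternatives. The cause of the changes below was not tested.

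The number of members that rose (2) was 1 with DESeq2 size factors, upper quartile scaling, total counts only, a stricter filter, limma voom, edgeR before version 4 or counts divided by step, and the number of regulators that rose (1) was 0 under those same settings. Falls in the fatty acid arm (2) were 1 with no filter. With total counts only, the median of all genes was -0.10 in place of -0.02, 42.2% of called genes were higher against 53.9%, and the medians were -0.38 for all members, -0.25 for the cholesterol arm and -0.48 for transport and storage. Both genes of transport and storage (2) fell with total counts only, a stricter filter or the DESeq2 Wald test. Fads2 and Tm7sf2 were not tested under the stricter filter, and Fads2 not with counts divided by step.

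Leaving out 1 library, genes that rose ran from 1291 to 2450 and those that fell from 1053 to 2085. Members that rose ran from 1 to 3 and members that fell from 5 to 15. In the cholesterol arm 1 to 2 rose and 2 to 4 fell. In the fatty acid arm 0 to 7 fell, with medians from -0.76 to -0.28. The 7 and the -0.76 (without LPS 3) include Scd1 and Fads2, which then did not reach 10 counts in both remaining LPS libraries. Among regulators 0 to 1 rose and 2 to 3 fell.

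Signs turned only in members that did not pass the test. With total counts only, Lss was at -0.053 and Nsdhl at -0.033. Leaving out 1 library, the value ran from -0.30 to 0.035 for Mvk (positive without LPS 3), from -0.033 to 0.027 for Pmvk (positive without Vehicle 3 or LPS 2), from -0.046 to 0.34 for Fdft1 (negative without LPS 3), from -0.0033 to 0.076 for Lss (negative without Vehicle 3), from -0.48 to 0.027 for Msmo1 (positive without LPS 3) and from -0.085 to 0.044 for Srebf2 (positive without Vehicle 1).

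Libraries with the same number share only that number in the labels. Their deviations from the group means correlated with r of 0.0734, 0.0453 and 0.0581 across genes, each library best with its own number. These values are small, and with deviations from a group mean some match is always the highest. They do not settle whether the libraries are paired. With a replicate block 2033 genes rose and 1783 fell, 9 members fell, Fads1 (adjusted p = 0.0548) and Scap (adjusted p = 0.0649) lost their calls, 1 gene of the fatty acid arm fell, and both genes of transport and storage (2) fell.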
